A study of Mus musculus with 4 samples.

Results

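The MOR28 cluster is a short run of olfactory receptor genes on mouse chromosome 14, and its members on the array were Olfr1507 (MOR28), Olfr1508 (MOR10), Olfr1509 (MOR83), Olfr1510, Olfr1511 and Olfr1512. They were taken as the non-control probes whose accession maps to these 6 symbols. This gave 6 probes, 1 per receptor, out of 1078 olfactory receptors and 45604 genes measured on all arrays. An accession that matched no symbol was counted as a gene of its own. The receptors were chosen by their age differences in these same arrays, whose values were already known, so the differences between ages are given below as a description, without a test. RNA of the septal nasal mucosa, labelled as olfactory epithelium, came from C57BL/6J mice of 2 ages: young adult mice of 8 weeks (2 months in the study's methods) and aged mice of 16 months. No allele, transgene or treatment separates the groups. Each age had 2 one-color arrays, and each array received RNA pooled from 5 mice, so the spread between arrays is a spread between pools. Separate pools would have needed more mice than the methods set aside for gene work at each age, and whether an age's pools had mice in common is not stated. A characteristic of the samples names silica aspiration, which fits neither the titles nor the methods and was not used.

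Each olfactory receptor neuron (ORN) expresses 1 allele of 1 receptor gene, and the receptor decides both which odorants the cell detects and to which glomerulus of the olfactory bulb its axon grows. The choice of receptor depends on enhancers bound by the homeodomain factor LHX2 with LDB1 and by O/E (EBF) factors, among them the H element, which lies beyond the Olfr1507 end of the MOR28 cluster and acts in cis on the receptors nearest to it, Olfr1507, Olfr1508 and Olfr1509. MOR28 neurons lie in the ventral zone of the epithelium and are a classical model of receptor choice and of axon convergence. In a bulk sample, fewer neurons expressing a receptor and less receptor RNA per neuron cannot be told apart.

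The promoters are shown because homeodomain and O/E sites near the start have been described as recurring features of receptor promoters. RefSeq windows of the GRCm38.p6 build were at hand for 4 of the 6 receptors, and the 250 bases before the annotated start are printed for the 3 whose window held a match to one of the searched motifs, 5′ to 3′ on the gene's strand. Capitals mark a match to TAATTA or TAATGA, homeodomain-type letters searched on both strands. The windows are chr14:52467462-52467711 (minus strand) for Olfr1508, chr14:52450143-52450392 (plus strand) for Olfr1509 and chr14:52410928-52411177 (minus strand) for Olfr1510.
Olfr1508: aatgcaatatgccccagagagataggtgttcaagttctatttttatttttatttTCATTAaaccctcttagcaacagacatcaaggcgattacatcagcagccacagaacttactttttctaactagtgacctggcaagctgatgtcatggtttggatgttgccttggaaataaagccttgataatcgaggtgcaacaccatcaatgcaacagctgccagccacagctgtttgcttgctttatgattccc
Olfr1509: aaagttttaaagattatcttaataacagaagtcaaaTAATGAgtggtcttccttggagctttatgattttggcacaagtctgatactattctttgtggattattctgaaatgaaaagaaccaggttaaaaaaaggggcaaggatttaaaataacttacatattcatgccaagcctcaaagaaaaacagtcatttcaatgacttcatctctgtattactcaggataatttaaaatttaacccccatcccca
Olfr1510: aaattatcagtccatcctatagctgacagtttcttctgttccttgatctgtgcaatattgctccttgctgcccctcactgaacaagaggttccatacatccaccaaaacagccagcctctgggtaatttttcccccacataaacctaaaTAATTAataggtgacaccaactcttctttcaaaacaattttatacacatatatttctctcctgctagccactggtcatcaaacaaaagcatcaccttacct
The window of Olfr1508 held TCATTA, which is TAATGA read on the other strand, with its first base at -196 from the start. That of Olfr1509 held TAATGA at -214, and that of Olfr1510 held TAATTA at -101. Neither motif matched in the window of Olfr1511, whose annotated start is an ATG, so that the window lies before the coding start and may not be its promoter, and the O/E letters CCCNNGGG matched in none of the 4. Each of the 3 printed windows held 1 match, so matches could not overlap. Among 948 receptor windows of the same length 18% held TAATTA and 25.2% held TAATGA, against 4.84% and 8.59% of the 32851 windows of all genes. CCCNNGGG was found in 2.74% of receptor windows and in 11.8% of all windows. In this search the O/E letters were thus rarer in receptor windows, unlike the homeodomain letters. The shares were not adjusted for the base composition of the windows, so they do not show an enrichment of sites. Such matches describe letters, not bound sites.

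Spot intensities were corrected for local background, quantile normalized and averaged per gene, so a level below is a normalized intensity and a difference is aged minus young adult on the log2 scale, with the standard error (SE) of the fit over all genes. A gene was past the limits at P below 0.05 and a false discovery rate (FDR) below 0.25 in limma, and was a differentially expressed gene (DEG) if, besides, its mean over the 4 arrays reached 100 and its fold change 1.5. The arrays had 59305 non-control spots each, of which 63.1 to 76.8% were well above background by the scanner's flag, and no spot was saturated. One slide carried both young adult array 1 and aged array 1, with a median local background of 67 and 63, while young adult array 2 (32) and aged array 2 (39) each had another slide. Omp, the marker of mature ORNs, was bright on every array at 286061 to 332591. The methods give male mice, but Xist measured 612 to 645 on the arrays and 0 of the 7 probes for 4 Y-linked genes were well above background on any array, so the data go against that sex in both ages alike.

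Olfr1508 and Olfr1507, neighbours at one end of the cluster, were higher in the aged pools, and the other 4 receptors differed by -0.28 to 0.24 on the log2 scale. Of the 6 receptors, 4 were higher in aged mice and 2 lower, with a median difference of 0.20. Past the P and FDR limits were 2 receptors, both higher and both DEGs, where 1.65% of all genes were past these limits as higher and 0.814% as higher DEGs. As lower, 2.33% of all genes and 0 of the receptors were past the limits, and 0 receptors were lower at an unadjusted p below 0.05 in limma. The ages did not overlap for 4 of the 6 receptors, as for 46% of all genes. When any 1 of the 4 arrays was left out, 0 of all genes were past the limits in limma, these receptors and every gene called below included, while 3288 to 5317 genes had an unadjusted p below 0.05. These counts use the contrast by which the receptors were chosen, so nothing is read from them.

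Olfr1508 encodes MOR10, a receptor of the MOR244 subfamily and a close relative of MOR28. Its probe measured 150 and 149 in the young adult pools and 499 and 517 in the aged pools. Both aged arrays lay far above both young adult arrays, and the aged pools differed from each other by 0.05 on the log2 scale and the young adult pools by less. The mean went from 149 ± 0.558 (SD, n = 2) to 508 ± 12.6 (SD, n = 2), a 3.40-fold difference of 1.77 (SE 0.08) on the log2 scale. The 2 arrays that shared a slide gave 1.74, and the arrays on separate slides gave 1.80. Before any correction, the median pixel signal of its spot was 207 and 168 in the young adult pools and 534 and 526 in the aged pools, over a local background of 72.5, 33, 74 and 43, so the ages were also apart in the scanner's own values.

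Olfr1507 encodes MOR28, the receptor that gives the cluster its name. It measured 79.7 and 92.7 in the young adult pools and 155 and 143 in the aged pools. The ages did not overlap. The mean was 86.2 ± 9.19 (SD, n = 2) in young adult and 149 ± 8.30 (SD, n = 2) in aged mice, a difference of 0.80 (SE 0.12), or 1.74-fold. The shared slide gave 0.96 and the arrays on separate slides 0.63, the same direction in both. Olfr1507 and Olfr1508 have 1 probe each, and whether either probe also detects the other's RNA was not tested. The mean of Olfr1507 over the 4 arrays was 118, close to the limit of 100. With the scanner's processed signal and quantile normalization the mean was 90.4, and with a background offset of 50 the fold was 1.46, so that Olfr1507 was then not counted as a DEG.

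Olfr1509 encodes MOR83, the third member of the MOR244 subfamily and the remaining receptor near the H element. Its intensities were 37.3 and 74.0 in the young adult pools and 40.4 and 62.9 in the aged pools. The ages overlapped, and the low value of each age was the array on the shared slide. On that slide the spot was not well above background in either age, with a spot signal only 11.5 and 17.5 above the local background, against 62.5 and 40 on the other arrays. The age difference was -0.06 (SE 0.46), smaller than the 0.99 between the young adult arrays and the 0.64 between the aged arrays. Its difference was 0.11 on the shared slide and -0.23 between the other arrays, and it turned sign in 5 of 16 alternative analyses. Some of these 16 returned the same difference and could not turn its sign.

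**Figure D1:**
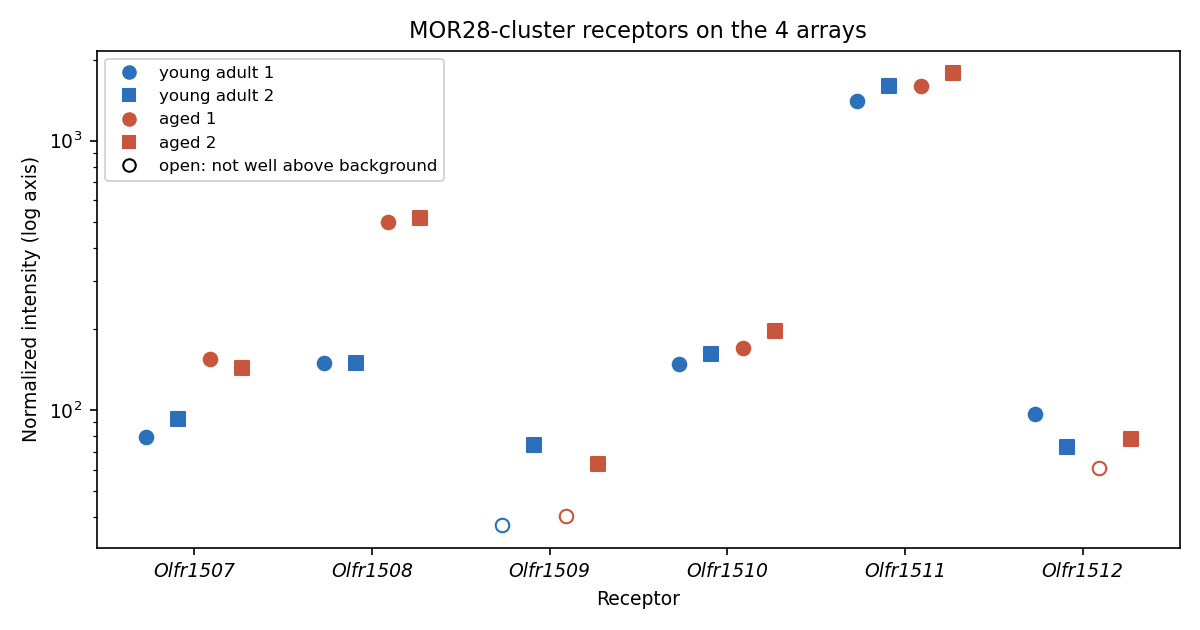
Normalized intensity (log axis) of the 6 MOR28-cluster receptors by receptor (x axis), with 1 point per array, blue for the 2 young adult and red for the 2 aged arrays, circles for array 1 and squares for array 2 of an age, and open where the spot was not well above background; heights compare within a receptor, not between probes. Olfr1508 (149 to 508) and Olfr1507 (86.2 to 149) have both aged arrays above both young adult arrays, while the arrays of Olfr1509 and Olfr1512 overlap.

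Olfr1510, Olfr1511 and Olfr1512 belong to another subfamily, MOR223, and lie farther from the H element. Olfr1511 measured 1405 and 1590 in the young adult pools and 1594 and 1777 in the aged pools. The highest young adult array was nearly level with the lowest aged array. Before normalization the ages overlapped. Its spot was 1529 and 1519 above the local background in the young adult pools and 1508.5 and 1722 in the aged pools, so aged was not higher on the shared slide. After normalization the difference was 0.17 (SE 0.12), with 0.18 on the shared slide and 0.16 between the other arrays. This was about as large as the 0.18 between the young adult pools and the 0.16 between the aged pools.

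Olfr1510 measured 148 and 162 in the young adult pools and 170 and 196 in the aged pools. The ages did not overlap, but the 2 aged pools were 0.21 apart, nearly as far as the ages, whose difference was 0.24 (SE 0.12). Before normalization the ages overlapped, with spots 133 and 147 above the local background in young adult and 144 and 168 in aged pools. Olfr1512 measured 96.8 and 73.0 in the young adult pools and 61.0 and 78.2 in the aged pools, and the ages overlapped. Its difference was -0.28 (SE 0.22), made up of -0.67 on the shared slide and 0.10 between the other arrays, and it was well above background on 1 of the 2 aged arrays. For this receptor the 2 pairs of arrays ran in opposite directions.

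In the gene table, the 6 receptors follow each other without another protein-coding gene between them, from Olfr1512 at one end to Olfr1507 at the other. Taken in that order the differences were -0.28, 0.17, 0.24, -0.06, 1.77 and 0.80, so that the 2 large values were next to each other at the Olfr1507 end. The 3 receptors nearest that end ran from -0.06 to 1.77 and the others from -0.28 to 0.24, so these ranges overlapped. They use the contrast by which the receptors were chosen, and position along the cluster was not tested. Next to Olfr1512 lies Olfr1513, also of the MOR223 subfamily, which measured 296 and 282 in young adult and 255 and 263 in aged mice, a difference of -0.16 (SE 0.08, FDR 0.523 in limma). Beyond it, Sall2, a zinc finger transcription factor, differed by -0.07 (SE 0.12, FDR 0.823 in limma) and Mettl3, the RNA m6A methyltransferase, by 0.21 (SE 0.07, FDR 0.396 in limma). On the other side, Gm36448 was not measured, Dad1, a subunit of the oligosaccharyltransferase, differed by -0.10 (SE 0.09, FDR 0.688 in limma), and Abhd4, a lipase, by 0.05 (SE 0.09, FDR 0.846 in limma). None of the measured flanking genes was past the limits.

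**Figure D2:**
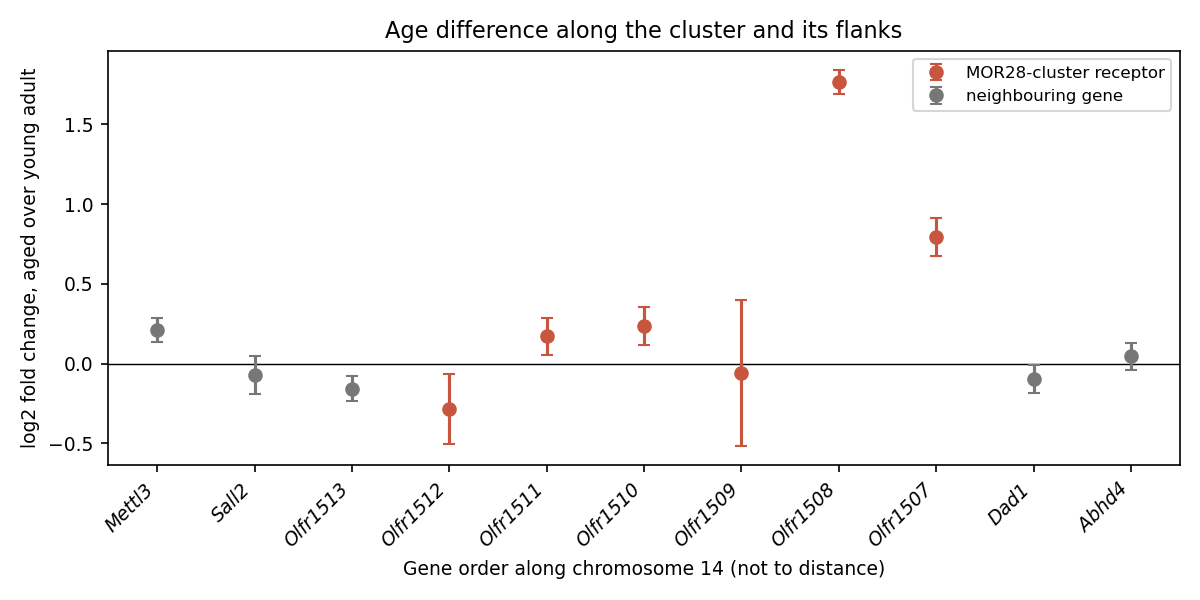
Log2 difference (aged minus young adult, y axis) of the 6 receptors and the measured genes on either side, placed in gene order (x axis) without distances; points are fitted values with bars of 1 SE. Olfr1508 (1.77) and Olfr1507 (0.80) lie side by side at one end of the cluster, and the flanking genes lie between -0.16 and 0.21.

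Within its subfamily, the MOR244 receptors gave 0.80 (SE 0.12), 1.77 (SE 0.08) and -0.06 (SE 0.46), and the differences between them were not tested. The MOR223 subfamily also has members on chromosome 9, of which Olfr979 was the 1 well above background, with a difference of 0.74. The others, Olfr978, Olfr980, Olfr981 and Olfr982, were dim, with differences of -0.26 to 0.43.

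Ordered by the age difference with the highest first, Olfr1508 was 5th of the 1078 olfactory receptors, 3rd of the 560 that had a probe well above background throughout at least 1 age, and 65th of all 45604 genes. Olfr1507 was 109th of the receptors and 73rd of those above background, Olfr1510 was 413th and 217th, Olfr1511 was 469th and 246th, and Olfr1512 was 855th and 433rd. Olfr1509 was 696th of the receptors. The members therefore covered much of the receptor range. Over all genes the median difference was 0.01, with 1.65% past the limits as higher and 2.33% as lower. Of the 1072 receptors outside the cluster, 116 were past the limits as higher and 40 as lower. These 1072 receptors were higher in 620 cases and lower in 452, with a median difference of 0.11. Their middle 90% ran from -0.66 to 1.02, which held every cluster receptor except Olfr1508. The 33 other receptors of chromosome 14, a set added after the values of the cluster were seen, had a median of 0.28 (0.275 unrounded) and reached at most 1.21, with 7 past the limits as higher and 0 as lower in limma, where 2 were lower at an unadjusted p below 0.05. Whether the cluster differs from other receptors was not tested.

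**Figure D3:**
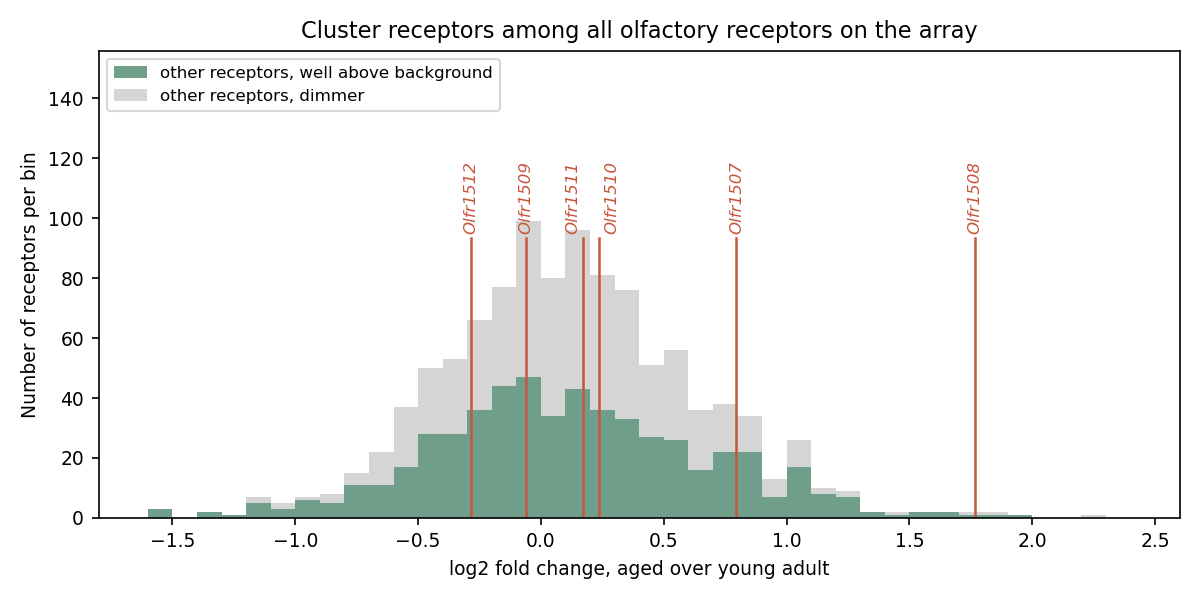
Number of olfactory receptors outside the cluster (y axis, stacked bars) by log2 difference between ages (x axis), in green those well above background and in gray the dimmer ones, with a vertical line for each of the 6 cluster receptors. Olfr1508 lies in the upper tail at 1.77 and Olfr1507 on the upper slope at 0.80, and the others spread from -0.28 to 0.24 on either side of the median of 0.11.

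Genes that ORNs use to choose and express a receptor were compared in the same fit, to give the values around the cluster. Of 14 factors of receptor choice and transport, 12 were higher in aged mice and 2 lower, with a median difference of 0.08, and 0 were past the limits in limma, where 1 was higher at an unadjusted p below 0.05. Lhx2, whose protein binds receptor enhancers, went from 21293 to 22573, a difference of 0.08 (SE 0.08, FDR 0.686 in limma). The O/E factors Ebf3 and Ebf2 had larger differences, 0.33 (SE 0.08, FDR 0.306 in limma) and 0.21 (SE 0.07, FDR 0.389 in limma), and Ebf3 was the factor with the unadjusted p below 0.05. The odorant transduction list holds genes of the pathway from receptor to channel and further ORN genes such as Omp. All 11 were higher, with a median of 0.25, and 1 was past the limits. This was Stoml3, a stomatin-like protein of the olfactory cilia, which rose from 30121 to 40615, by 0.43 (SE 0.08, FDR 0.244 in limma). Gnal, the G protein subunit that couples receptors to adenylyl cyclase, differed by 0.05 (SE 0.08, FDR 0.810 in limma). The smallest difference was that of Gnb1, another G protein subunit, at 0.04 (SE 0.08, FDR 0.866 in limma), and its ages overlapped.

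Molecules that sort axons of ORNs in the olfactory bulb are expressed at levels that depend on the receptor. Of 8 such genes, 3 were past the limits as higher and all of these were DEGs, while 5 were lower with 0 past the limits, also 0 at an unadjusted p below 0.05, and the median was -0.10. Kirrel2, a homophilic adhesion molecule, measured 2336 and 2289 in young adult and 5126 and 4862 in aged mice, a rise of 1.11 (SE 0.08, FDR 0.178 in limma). Pcdh10, a protocadherin, rose from 1778 to 3250, by 0.87 (SE 0.08, FDR 0.178 in limma), and Epha5, an ephrin receptor, rose from 1058 to 1910, by 0.85 (SE 0.08, FDR 0.178 in limma).

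Zone markers tell the ventral epithelium, where MOR28 neurons lie, from the dorsal part. Of 5 ventral markers 2 were higher and 3 lower, with a median of -0.03, and of 3 dorsal markers 1 was higher and the other two lower, with a median of -0.15. Past the limits were 0 of either list in limma, with 1 of each lower at an unadjusted p below 0.05. Ncam2, an adhesion molecule of ventral ORNs, measured 135 and 156 in young adult and 173 and 211 in aged mice, a difference of 0.40 (SE 0.16, FDR 0.427 in limma). Nfix, a transcription factor of the same list and the ventral marker with the unadjusted p below 0.05, went the other way, from 3685 to 2898, a difference of -0.35 (SE 0.07, FDR 0.270 in limma). Nqo1, a dorsal enzyme, went from 8722 to 6999, a difference of -0.32 (SE 0.10, FDR 0.351 in limma), while Acsm4, another dorsal enzyme, went from 65399 to 73569, a difference of 0.17 (SE 0.08, FDR 0.475 in limma). Neither list thus ran in 1 direction.

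The 7 markers of immature neurons had differences below 0, with a median of -0.31 (-0.305 unrounded). The smallest was that of Crmp1, a collapsin response mediator, at -0.01 (SE 0.08, FDR 0.971 in limma), whose ages overlapped and which was 0.02 under both 75th percentile scalings and 0.04 without young adult array 1. Of these 1 was past the limits, Dbn1, an actin-binding protein of growing neurites, which fell from 1735 to 1297, by 0.42 on the log2 scale (SE 0.08, FDR 0.242 in limma). Gap43, a growth cone protein, went from 8379 to 6316, a difference of -0.41 (SE 0.08, FDR 0.251 in limma), and was not past the limits, though it was past them in 8 of the 16 alternative analyses with a test. Of 5 sustentacular cell markers 4 were higher and 1 lower, with a median of 0.13 and with Cyp1a2, a cytochrome P450, past the limits at 0.54 (SE 0.08, FDR 0.209 in limma), while Cyp2g1, another cytochrome P450, differed by 0.16 (SE 0.08, FDR 0.498 in limma). Of 5 respiratory ciliated cell markers 1 was higher and 4 lower, with a median of -0.03, and 0 were past the limits in limma, where 1 was lower at an unadjusted p below 0.05. This was Dnah5, an axonemal dynein, at -0.37 (SE 0.09, FDR 0.290 in limma), while Foxj1, the regulator of motile cilia, differed by -0.03 (SE 0.12, FDR 0.924 in limma).

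Of 5 vomeronasal markers 4 were measured, 3 higher and 1 lower, with a median of 0.42. The summed level of the list was 774 and 795 in the young adult pools and 2301 and 2475 in the aged pools. H2-M10.3, a class I molecule of vomeronasal neurons, carried most of it, rising from 684 to 2270, by 1.73 (SE 0.09, FDR 0.168 in limma). It was the 1 marker of the list well above background throughout an age. Vmn2r1, a vomeronasal receptor, measured 29.9 in young adult and 39.6 in aged mice, H2-M1 measured 41.2 and 55.9, and H2-M9 measured 29.1 and 22.4, and none of these was well above background throughout an age. H2-M10.3 rose in the same arrays in which Olfr1508 was higher, and whether these differences are related was not tested.

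**Figure D4:**
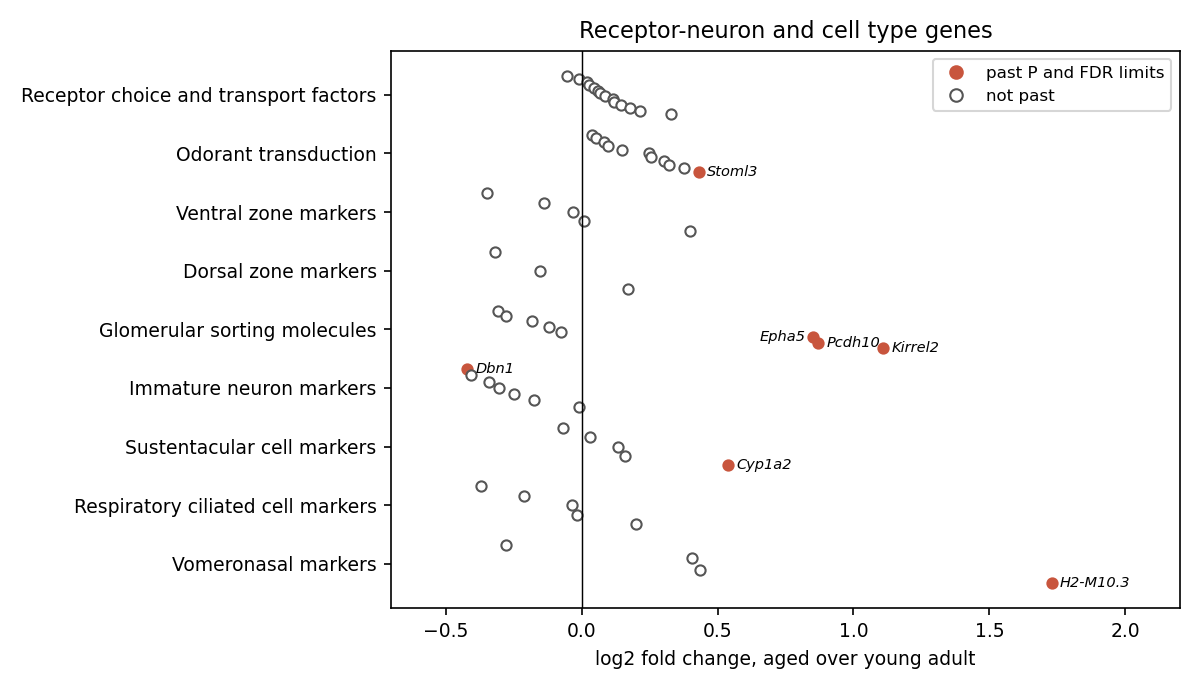
Log2 difference (aged minus young adult, x axis) of each measured gene of the 9 lists (rows), with filled points for genes past the P and FDR limits in limma and open points for the others. Kirrel2 (1.11), Pcdh10 (0.87) and Epha5 (0.85) stand apart among the glomerular sorting molecules and H2-M10.3 (1.73) among the vomeronasal markers, while the receptor choice factors run from -0.05 to 0.33.

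The genes with array profiles most like those of the 3 receptors near the H element were found by the Euclidean distance between log2 values centred on their mean over the 4 arrays, among 17134 named genes above background (17135 for Olfr1509). With 2 ages of 2 arrays, such a profile is mostly the size of the age difference and the spread within each age. For Olfr1508 the nearest were H2-M10.3 at a distance of 0.0569, Nppc, which encodes C-type natriuretic peptide, at 0.0697, and Gm8032 at 0.134. For Olfr1507 they were Prss33, a serine protease, at 0.0468, Lncbate10, a long noncoding RNA, at 0.0617, and the receptor Olfr1248 at 0.0658. For Olfr1509 the nearest were Cyp4a31 at 0.163, Spata31d1b at 0.189 and 4921518K17Rik at 0.200, farther off than those of the other two receptors.

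**Figure D5:**
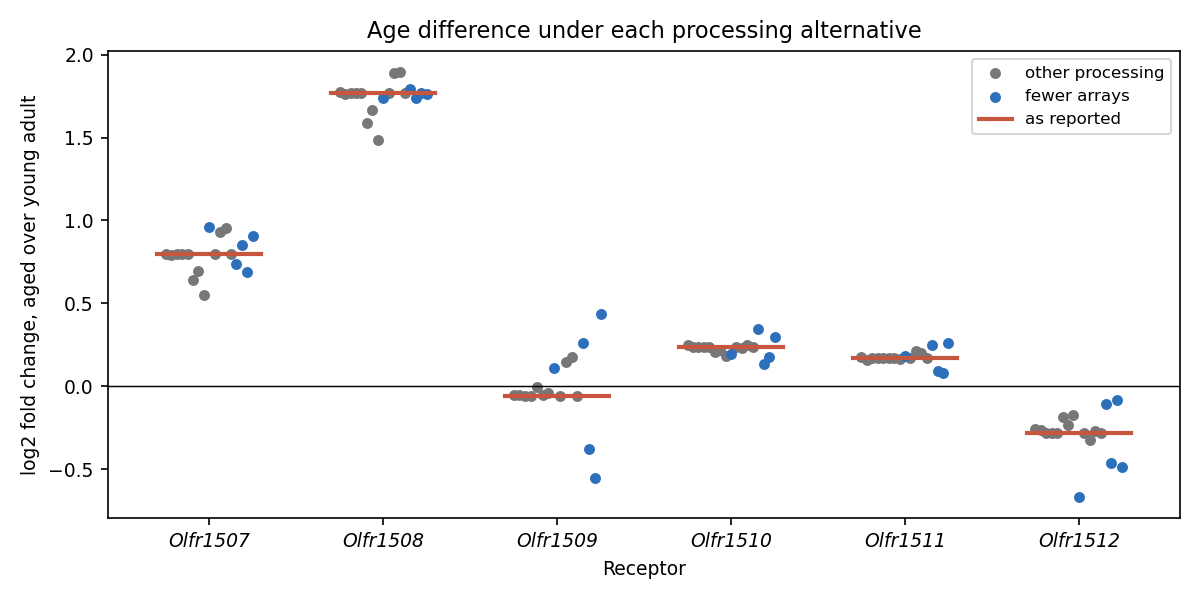
Log2 difference (aged minus young adult, y axis) of each of the 6 receptors (x axis) as reported (red line) and under the alternatives, in gray for other processing and in blue for fewer arrays. Olfr1508 stays between 1.48 and 1.90 and Olfr1507 between 0.55 and 0.96, while Olfr1509 runs from -0.55 to 0.43 and crosses 0.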

How the data were processed

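RNA of septal nasal mucosa was measured on 4 Agilent one-color arrays. The authors deposited, for each spot, the median pixel intensity, the median local background intensity and a processed intensity from Feature Extraction 11.0.1.1, with no normalization between arrays. Their table of values equalled the processed intensity exactly, with no tolerance, in all 62976 spots of each array.

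Background was corrected by normexp (offset 0, all spots) in limma 3.58.1 under R 4.3.3. Control spots and outlier-flagged spots (88 to 118 per array) were left out, spots of a probe averaged, values quantile normalized and probes of a gene averaged on the log2 scale. Genes with a value on all 4 arrays were kept, which left out 12. Accessions matched a RefSeq table of GRCm38.p6 for 32994 of 56605 probes (58.3%). The other accessions were kept as genes of their own, and the shares and ranks over all genes include them. The array design uses another build, so coordinates are given only for the RefSeq promoter windows.

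Ages were compared with limma (lmFit, eBayes, Benjamini-Hochberg over all genes), without covariates. The fit was also run on simulated arrays. Their noise was independent between arrays, without slides or shared mice, so that run cannot show what these do here. The number of arrays limits the precision, and a permutation test of 2 against 2 arrays cannot go below an exact two-sided p of 0.333. The receptors and gene lists were chosen with earlier results of these data known. Genes named were the receptors, their 3 neighbours on each side and the genes nearest in profile. Of each list, the first measured gene and up to 4 past the limits were named. Omp and the sex-linked genes were added as checks and Olfr978 to Olfr982 as relatives. Ebf2, Ebf3, Gnb1, Nfix, Acsm4, Crmp1 and Dnah5 were added after their values were seen. The remaining vomeronasal markers were added to give the rest of their measured list. Alternatives were other offsets, no background correction, processed intensities, other normalizations, flagged spots kept, dim probes left out, the most intense probe, an intensity trend, a replicate block, 1 slide alone, each array left out and other limits.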

Additional observations from a re-analysis of the deposited data

How the results depend on the processing

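Of the 6 receptors, 2 were higher and past P and FDR. This count was 1 with the processed signal scaled to the 75th percentile and with 75th percentile scaling of the median signal. It was 0 with the replicate block, and 0 to 0 over the fits that left out each array in turn. The count of higher DEGs, also 2, was 1 in both percentile scalings, with the processed signal under quantile normalization, with a normexp offset of 50, with the mean expression limit at 200 and with the fold change limit at 2, and it was 0 with an FDR below 0.05, with the replicate block and in each fit without an array (0 to 0). Wherever the count was 1, the receptor kept was Olfr1508. With the replicate block and without any 1 array, 0 of all 45604 genes were past the limits in limma, while 2 receptors still had an unadjusted p below 0.05, and the log2 difference ran from 0.69 to 0.90 for Olfr1507 and from 1.74 to 1.79 for Olfr1508 when an array was left out. The replicate numbers do not pair the samples in the labels, and the deviations of same-numbered arrays correlated at -0.0779.

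Over 17 alternatives, Olfr1507 (0.55 to 0.96), Olfr1508 (1.48 to 1.90), Olfr1510 (0.13 to 0.34), Olfr1511 (0.08 to 0.26) and Olfr1512 (-0.67 to -0.08) kept their sign, as did the median of the receptors (0.11 to 0.37). Olfr1509 kept its sign in 11 of 16, and it has no value without the dim probes. Not every alternative could move these differences. Using only the brightest probe, an intensity trend or a replicate block returned each receptor's main difference unchanged. The filter for dim probes did the same where it left a value, and keeping flagged spots changed little. These settings are counted above as keeping the sign, but they are no check of it. Among the list genes, Stoml3 and Dbn1 were not past the limits under either 75th percentile scaling, while Kirrel2, Epha5 and Pcdh10 were past them in every fit but those with the replicate block or without an array, where no gene was. Over all genes, 754 were higher and 1063 lower past the limits, against 584 and 826 with 75th percentile scaling, 2107 and 2475 with an offset of 50, 3445 and 3706 without dim probes and 3612 and 3518 with an intensity trend. The slide as a random block could not be fitted with age, since 0 residual degrees of freedom remained. Low signal over background limits Olfr1509 and Olfr1512. Olfr1507 was also dim, with spots 57 and 81 above the local background in young adult and 130 and 117 in aged pools. Its spot was well above background on every array.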
